A study of Homo sapiens with 9 samples.

Results

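Messenger RNA of 10 genes of the cytosolic heat shock chaperone system was followed across 22Rv1 cells that carried 1 of 3 forms of PDCD4. They are HSPA1A, HSPA1B, HSPA8, HSPA4, HSPH1, HSP90AA1, HSP90AB1, DNAJB1, HSPB1 and BAG3, taken by symbol, 10 of the 60623 genes in the deposited table. Each of the 10 passed the filter on low counts and was among the 16213 genes tested. 22Rv1 is an established human prostate carcinoma line that expresses the androgen receptor, and PDCD4 is an inhibitor of translation initiation that binds the helicase eIF4A. In all 9 libraries PDCD4 had been knocked down with a short hairpin RNA and a rescue form put back, 3 libraries per form. The forms were wild type (WT), S239A and S239D. S239A puts alanine, which no kinase can modify, where a serine stood, and S239D puts aspartate there to mimic the charge of a phosphate. The study asked how phosphorylation of PDCD4 by the kinase PLK1 bears on resistance to enzalutamide, an androgen receptor antagonist. The labels name no drug treatment of these cells, 1 cell line stands for all groups, and nothing in the labels says that replicates came from separate cultures, so each p-value below reflects the spread of these libraries alone, which may be technical.

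Heat shock chaperones hold unfolded or newly made proteins and help them fold. HSP70 proteins (HSPA genes) bind short hydrophobic stretches in a cycle driven by ATP, J-domain proteins such as DNAJB1 deliver the client and trigger hydrolysis, and exchange factors such as HSPH1 and BAG3 release the nucleotide. HSP90 proteins act later, on clients that are nearly folded, and steroid receptors, the androgen receptor among them, need HSP90 and HSP70 to reach the state that binds hormone. Heat shock factor 1 (HSF1) drives the inducible genes of the family under protein stress by binding heat shock elements, repeats of the unit GAA in alternating orientation.

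The count table held 5696841 to 9688554 counts per library. PDCD4 itself was at 24.1, 24.9 and 20.4 normalised CPM (counts scaled to a common library size) with WT, 19.0, 23.1 and 25.0 with S239A and 16.8, 17.1 and 17.0 with S239D. The difference of S239D from WT was -0.44 on the log2 scale (SE 0.13, adjusted p = 0.0164 by edgeR's quasi-likelihood test, 0.00878 to 0.41 over the alternative analyses). The call was lost without WT replicate 1 (adjusted p = 0.0657), without WT replicate 2 (0.0627) and with limma on TPM (0.41). The table has 1 PDCD4 value per library, which does not separate rescue from endogenous transcript, so it does not check which form a library carries. All 9 luminal prostate markers were above 0 in every library, with summed TPM (a level corrected for transcript length) of 3476 to 3573 with WT, 3602 to 4138 with S239A and 2618 to 2667 with S239D. Summed TPM was 0 to 0.14 for 3 endothelial and 0.28 to 7.58 for 4 leukocyte markers. For 6 fibroblast markers, of which 5 were above 0 in every library, it was 46.5 to 61.1 in the WT and S239A libraries and 26.9 to 37.0 in those of S239D. Of the 4 that were tested, edgeR called 2 lower and 0 higher in S239D against WT, beside 21.7% and 19.7% of all genes. COL1A1 fell in TPM only, with means of 28.7 normalised CPM with WT and 30.6 with S239D. The part of these marker differences in the results below was not tested. Replicate 2 of S239A and of S239D differed from its group mates, with a chi-square per degree of freedom of 9.22 to 15.9 against 1.90 to 2.49 for the other pairs. Mitochondrial transcripts held 5.38% and 6.01% of counts in these libraries, 2.99% to 3.33% in the other S239A libraries, 4.72% to 4.90% in the other S239D libraries and 2.83% to 3.04% in WT. Counts of chaperones are therefore also given without them.

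Over all genes tested, edgeR called 0.00617% in S239A against WT (1 gene), 41.4% in S239D against WT (3195 higher and 3513 lower) and 43.6% in S239D against S239A (20.9% higher and 22.7% lower), at an adjusted p under 0.05. With limma on log2(TPM + 1) the split of S239D against WT was 2526 higher and 1825 lower, and the median of all genes was 0.082 in place of 0.00075. Any 2 of the 3 comparisons share the libraries of 1 group.

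The genes whose levels moved in opposite directions, HSPA1A and HSPH1, are shown with HSPA1B, the near-twin of HSPA1A, by the sequence upstream of their start sites (RefSeq, GRCh38.p14, 5′ to 3′ on the gene's strand). Each stretch runs from base -250 to base -80 relative to the RefSeq start, because GENCODE release 29 places an exon of HSPA1A from there on. HSPA1A lies at chr6:31815543-31817946 and HSPA1B at chr6:31827738-31830254 on the plus strand, each with 1 exon, and HSPH1 lies at chr13:31134973-31162388 on the minus strand with 18 exons. The stretches are chr6:31815293-31815463 (plus), chr6:31827488-31827658 (plus) and chr13:31162468-31162638 (minus). Capitals mark a pair of heat shock units, GAANNTTC.
HSPA1A: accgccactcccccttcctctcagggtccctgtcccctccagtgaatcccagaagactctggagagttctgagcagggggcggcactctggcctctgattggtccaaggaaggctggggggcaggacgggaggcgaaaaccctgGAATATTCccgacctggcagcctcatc
HSPA1B: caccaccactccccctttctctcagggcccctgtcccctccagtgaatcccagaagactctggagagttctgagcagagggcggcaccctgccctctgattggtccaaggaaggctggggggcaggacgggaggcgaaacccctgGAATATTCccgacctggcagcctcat
HSPH1: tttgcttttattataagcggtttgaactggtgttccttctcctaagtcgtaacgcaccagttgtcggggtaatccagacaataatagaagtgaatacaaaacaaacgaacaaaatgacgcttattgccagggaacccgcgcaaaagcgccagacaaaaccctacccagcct
Of 170 positions aligned without a gap, HSPA1A and HSPA1B had the same base at 163 (95.9%), and HSPA1A and HSPH1 had the same base at 73 of 162 (45.1%). GAATATTC stood at -106 to -99 in HSPA1A and at -105 to -98 in HSPA1B.

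The motifs GAANNTTC and TTCNNGAA, each its own reverse complement, were searched on both strands, and so was a run of 3 units (GAANNTTC followed directly by NNGAA, or TTCNNGAA followed directly by NNTTC, each holding both shorter motifs). The search covered windows of 250 bases before to 50 bases after the RefSeq start. Of 35116 such windows in the table, GAANNTTC was in 6.77%, TTCNNGAA in 7.74% and the 3-unit run in 0.490%. Of the 15 windows of the 10 chaperone genes, GAANNTTC was in 8, TTCNNGAA in 3 and the 3-unit run in 3. Counted by gene these were 7, 3 and 3 of the 10. The 3-unit runs belonged to HSPA8, HSP90AA1 and HSP90AB1. HSPA8, the constitutive HSP70, had GAAAGTTCCAGAA at -230 to -218 (chr11:123062354-123062366, minus strand) and TTCTGGAAGGTTC at -55 to -43 (chr11:123062179-123062191). HSPH1, HSPA4 and BAG3 had none of these motifs in their windows. The matches describe letters in these windows and are not evidence of a bound site.

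Per unit of transcript length, the small heat shock protein HSPB1, which holds unfolded proteins without ATP, was the most abundant of the 10 in WT, at 2739 ± 112 TPM (SD, n = 3, as for every level below). HSPA8 followed at 1191 ± 7.02 TPM, then HSP90AB1, the constitutive HSP90, at 1127 ± 30.0 and HSP90AA1, the inducible one, at 796 ± 10.8. The inducible HSP70 gene HSPA1B stood at 302 ± 4.93 TPM. The remaining 5 were the HSP110 protein HSPA4 at 94.9 ± 3.76, DNAJB1 at 74.2 ± 2.93, HSPA1A at 71.3 ± 6.13, HSPH1 at 39.0 ± 2.41 and BAG3 at 37.6 ± 1.74 TPM. Neighbours in this order were apart in every WT library except DNAJB1 and HSPA1A, and HSPH1 and BAG3, which overlapped.

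The top and the bottom of that order differed in how they carried over to the variants. HSPB1 was first in all groups, at 2666 ± 249 TPM in S239A and 2704 ± 277 in S239D. HSP90AB1 and HSPA8 overlapped in S239A (1140 ± 127 and 1079 ± 140 TPM) and in S239D (1155 ± 109 and 1096 ± 127 TPM). HSPA1A moved from rank 7 in S239A, at 85.5 ± 4.95 TPM, to rank 10 in S239D, at 27.3 ± 1.5 TPM, where its libraries overlapped only those of BAG3 (35.8 ± 6.71). HSPH1 moved from rank 10 in S239A, at 36.1 ± 5.20 TPM, to rank 8 in S239D, at 63.6 ± 6.10. Together the 10 genes held 0.647% ± 0.0148 of TPM with WT, 0.632% ± 0.0252 with S239A and 0.655% ± 0.0101 with S239D. Two-sided exact permutation tests of that share gave p = 0.5 for S239A against WT, 0.5 for S239D against WT and 0.2 for S239D against S239A, and 3 against 3 libraries cannot go below 0.1.

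**Figure D1:**
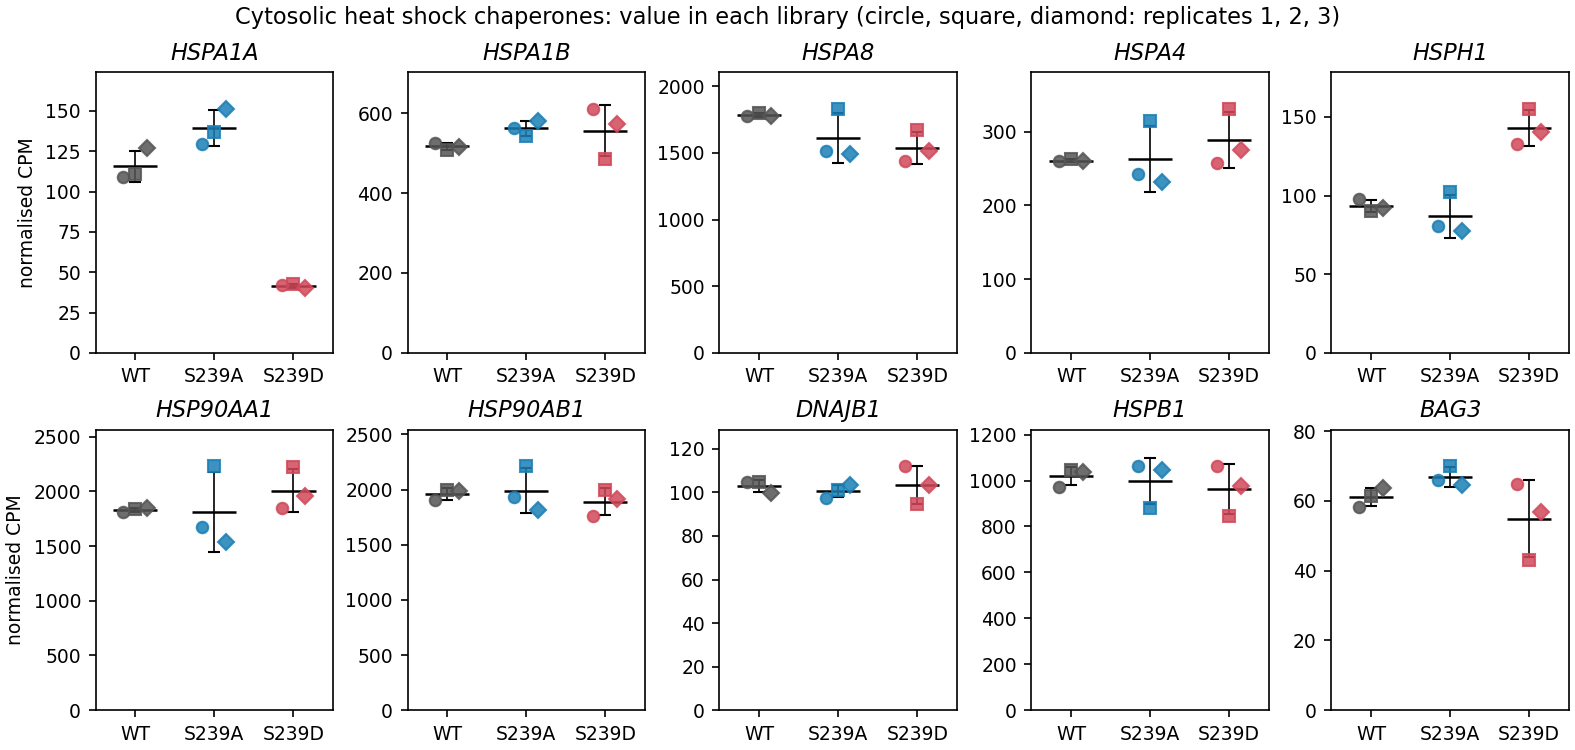
Normalised CPM of each of the 10 chaperone genes (vertical axes, starting at 0) in the WT, S239A and S239D libraries, with circle, square and diamond for replicates 1, 2 and 3, and bars for the mean and SD. HSPA1A libraries sit at 40.3 to 42.4 in S239D and at 109.0 or above elsewhere, HSPH1 libraries sit at 132.8 or above in S239D and at 102.5 or below elsewhere, and no other gene has its S239D libraries apart from both other groups.

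Against WT, 2 of the 10 genes were called in S239D, and 0 of 10 in S239A, beside 0.00617% of all genes tested. HSPA1A fell and HSPH1 rose in S239D, against both WT and S239A. The 2 of 10 called in S239D against WT stand beside 41.4% of all genes tested (19.7% higher, 21.7% lower). The 2 of 10 called against S239A stand beside 43.6% (20.9% higher, 22.7% lower). These counts differed without both variant replicate 2 libraries, as given below. The median log2 difference over the 10 genes was -0.0015 for S239A against WT, -0.024 for S239D against WT and -0.033 for S239D against S239A, and over all genes tested it was 0.0017, 0.00075 and 0.0099. For S239A against WT, 1 of the 10 had an unadjusted p under 0.05 by edgeR, as had 1583 genes (9.76%) of all tested, and DESeq2 also called none of the 10.

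Groups that did not overlap in any library are a separate count. HSPA1A, HSPA1B and BAG3 were higher in every S239A library than in every WT library, and none was lower than WT, beside 9.94% of all genes higher and 9.55% lower in that way (19.5% in all). In S239D against WT, HSPH1 was higher and HSPA1A and HSPA8 were lower without overlap, beside 26.5% and 27.4% of all genes (53.9% in all). In S239D against S239A these were HSPH1 and HSPA1A alone, beside 24.2% and 25.6% (49.8% in all).

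**Figure D2:**
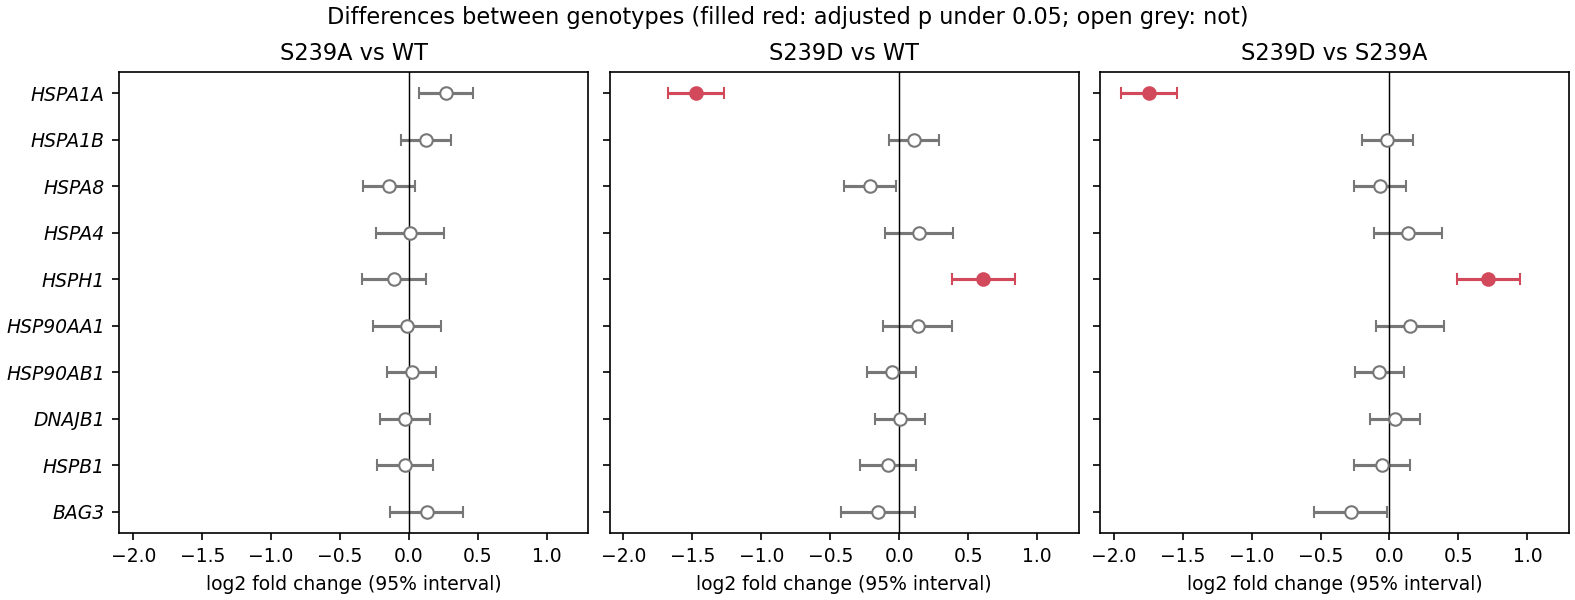
Log2 fold change of each chaperone gene (horizontal axis) in S239A against WT, S239D against WT and S239D against S239A, with 95% intervals and filled points for an adjusted p under 0.05 by edgeR. HSPA1A at -1.47 and -1.74 and HSPH1 at 0.61 and 0.72 are the filled points, both in the S239D panels.

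HSPA1A encodes the stress-inducible HSP70 of the cytosol. It was at 109.0, 110.8 and 126.7 normalised CPM with WT, at 129.4, 136.9 and 151.2 with S239A and at 42.1, 42.4 and 40.3 with S239D. The S239D libraries lay close together and far below all others, and the S239A libraries lay above the WT libraries. In S239D the level was 2.78-fold lower than in WT, a log2 difference of -1.47 (SE 0.096, 95% interval -1.68 to -1.27, adjusted p = 9.78e-08 by edgeR). Against S239A the log2 difference was -1.74 (SE 0.095, adjusted p = 1.68e-08), 3.35-fold lower. Both calls held in each of the alternative analyses in which the gene was tested on its own, with an adjusted p of at most 3.95e-05. In S239A against WT the log2 difference was 0.27 (95% interval 0.075 to 0.46, adjusted p = 0.349 by edgeR), and without replicate 2 of both variants it was 0.28 with an adjusted p of 0.0254. Because these are bulk samples, fewer cells that express the gene and less RNA per cell cannot be told apart, here and below.

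HSPA1B encodes almost the same protein as HSPA1A from its own promoter. It was at 524.9, 508.7 and 515.3 normalised CPM with WT, 562.4, 543.2 and 580.3 with S239A and 610.5, 485.1 and 573.1 with S239D. The 3 S239D libraries of this gene spread across the range of the other groups, with replicate 2 the lowest of all 9. The difference of S239D from WT was 0.11 on the log2 scale (95% interval -0.075 to 0.29, adjusted p = 0.335 by edgeR), and that of S239D from S239A was -0.015 (-0.20 to 0.17, adjusted p = 0.903). Without S239D replicate 2 the difference from WT was 0.20 (adjusted p = 0.0303 by edgeR). The S239A difference from WT was 0.12 (-0.060 to 0.30, adjusted p = 0.677).

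The values of this pair depend on how reads were divided between them. Of the 2434 runs of 50 bases in the HSPA1A transcript, 72.6% occur also in HSPA1B. In the coding part 8.31% were distinct, while all runs centred in the 5′ or 3′ UTR were distinct, so the division rests mainly on the ends of the transcripts. RSEM, which the authors used, divides reads that fit several transcripts by estimate, and the HSPA1A and HSPA1B values are uncertain to that extent. HSPA1A held 17.2%, 17.9% and 19.7% of the summed counts of both genes with WT, 18.7%, 20.1% and 20.7% with S239A, and 6.45%, 8.05% and 6.56% with S239D. The S239D shares lay below all others, with an exact two-sided permutation p of 0.1 against WT and against S239A, the smallest that 3 against 3 libraries allow.

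The sum of both genes does not depend on that division. It was 634.0, 619.5 and 642.1 normalised CPM in the WT libraries, 691.8, 680.2 and 731.5 in those of S239A, and 652.6, 527.5 and 613.4 in those of S239D. Every S239A library was above every other library, and S239D straddled WT. For the sum, S239D differed from WT by -0.080 on the log2 scale (SE 0.083, 95% interval -0.26 to 0.098, adjusted p = 0.466 by edgeR). Against WT, then, HSPA1A fell while the difference of the summed inducible HSP70 message did not pass the test. Against S239A the sum in S239D differed by -0.23 on the log2 scale (SE 0.083, 95% interval -0.41 to -0.052, adjusted p = 0.0367 by edgeR), and S239A against WT differed by 0.15 (-0.028 to 0.33, adjusted p = 0.579).

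**Figure D3:**
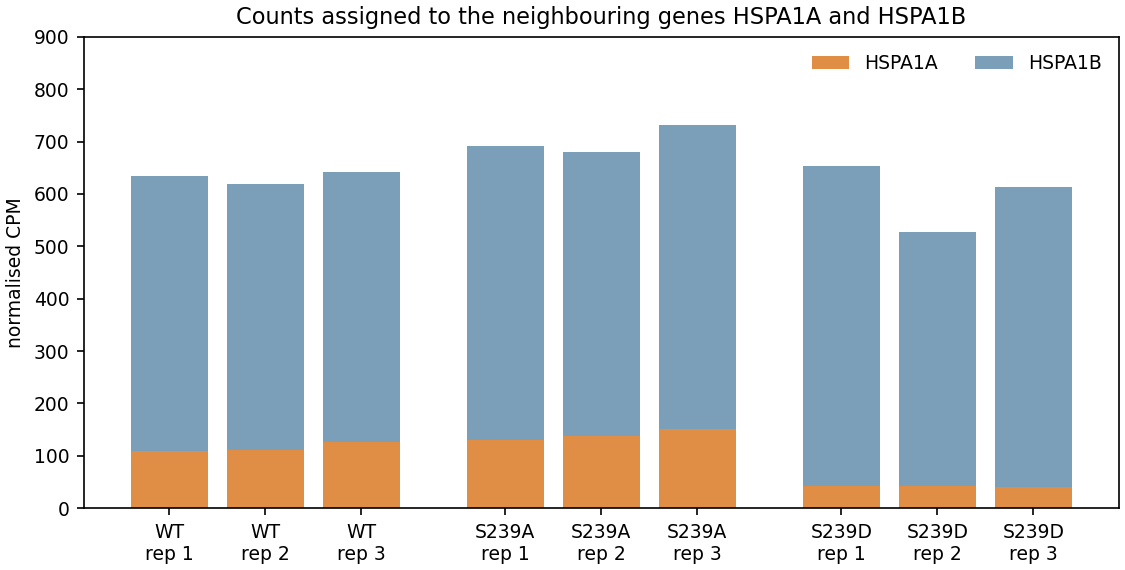
Normalised CPM assigned to HSPA1A (orange) and to HSPA1B (blue), stacked so that a bar's height is their sum, in each of the 9 libraries. The orange part is 17.2% to 20.7% of the summed counts in the WT and S239A libraries and 6.45% to 8.05% in the S239D libraries, while the bars reach 619.5 to 731.5 in WT and S239A and 527.5 to 652.6 in S239D.

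HSPA8 encodes HSC70, the HSP70 present in unstressed cells. It was at 1778, 1803 and 1777 normalised CPM with WT, 1514, 1831 and 1496 with S239A and 1436, 1670.5 and 1514 with S239D. All 3 S239D libraries were below the WT libraries, and replicate 2 was the highest library in each variant group. The S239D difference from WT was -0.21 on the log2 scale (95% interval -0.40 to -0.025) and missed the threshold (adjusted p = 0.0654 by edgeR). That call depended on the analysis: without S239D replicate 2 the value was -0.27 (adjusted p = 0.0201), without S239A replicate 2 it was -0.21 (adjusted p = 0.0086), and with only the S239D and WT libraries in the fit it was -0.22 (adjusted p = 0.0147). The S239A difference from WT was -0.15 (-0.33 to 0.042, adjusted p = 0.612 by edgeR), and -0.25 (adjusted p = 0.000785) without replicate 2 of both variants. The summed TPM of HSPA1A, HSPA1B and HSPA8 was 1564 ± 5.67 with WT, 1492 ± 130 with S239A and 1468 ± 99.8 with S239D.

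HSPH1 encodes HSP105, a member of the HSP110 family that exchanges nucleotide on HSP70 and helps it dissolve aggregates. It was at 97.9, 90.3 and 92.1 normalised CPM with WT, 80.9, 102.5 and 77.4 with S239A and 132.8, 155.0 and 140.2 with S239D. The S239D libraries were above all others, while S239A libraries lay on both sides of WT. In S239D the level was 1.53-fold higher than in WT, a log2 difference of 0.61 (SE 0.11, 95% interval 0.38 to 0.84, adjusted p = 0.000469 by edgeR). Against S239A it was 1.64-fold higher, a log2 difference of 0.72 (SE 0.11, adjusted p = 0.000114). The adjusted p stayed at or below 0.00434 in every alternative analysis of S239D against WT. The S239A difference from WT was -0.11 (-0.34 to 0.13, adjusted p = 0.794 by edgeR), and it was -0.25 (adjusted p = 0.0311) without replicate 2 of both variants. Its transcript shares no run of 50 bases with another gene, so the division of reads does not enter these values.

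HSPA4, the other HSP110 member of the set, was not called in any comparison. It was at 260.0, 262.7 and 260.1 normalised CPM with WT, 242.3, 314.3 and 232.1 with S239A and 258.2, 331.1 and 275.8 with S239D. Replicate 2 was again the highest library of each variant group, and all groups overlapped. The S239D difference from WT was 0.14 on the log2 scale (95% interval -0.10 to 0.39, adjusted p = 0.337 by edgeR), and from S239A it was 0.13 (-0.11 to 0.38, adjusted p = 0.369). Without S239A replicate 2 the latter was 0.28 (adjusted p = 0.024 by edgeR), past the threshold.

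The cytosolic HSP90 genes did not pass the test in any comparison. HSP90AA1 was at 1809.9, 1838 and 1849 normalised CPM with WT, 1673, 2232 and 1542 with S239A and 1846, 2226 and 1955 with S239D. The WT libraries lay within a narrow band, and the variant groups spread around it with replicate 2 on top. Its difference was -0.013 in S239A against WT (95% interval -0.26 to 0.23, adjusted p = 0.985 by edgeR). In S239D it was 0.13 against WT (-0.11 to 0.38, adjusted p = 0.381) and 0.15 against S239A (-0.10 to 0.39, adjusted p = 0.327). Without S239A replicate 2 the last comparison gave an adjusted p of 0.0032 by edgeR.

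HSP90AB1 was at 1901, 1997 and 1984 normalised CPM with WT, 1934, 2212 and 1817 with S239A and 1756, 1995 and 1914 with S239D. These libraries overlapped throughout. Its differences were 0.020 in S239A against WT (95% interval -0.16 to 0.20), -0.055 in S239D against WT (-0.23 to 0.12) and -0.074 in S239D against S239A (-0.25 to 0.10), with adjusted p of 0.967, 0.628 and 0.499 by edgeR. The ratio of HSP90AA1 to HSP90AB1 in TPM was 0.707 ± 0.0138 with WT, 0.685 ± 0.0643 with S239A and 0.802 ± 0.0346 with S239D, and its S239D range of 0.773 to 0.840 lay above the WT range of 0.694 to 0.721 and the S239A range of 0.641 to 0.759.

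DNAJB1, the J-domain partner of inducible HSP70, had the smallest S239D difference from WT of the 10. It was at 104.6, 104.7 and 99.8 normalised CPM with WT, 97.5, 101.3 and 103.3 with S239A and 112.1, 94.9 and 103.4 with S239D. The difference of S239D from WT was 0.0064 on the log2 scale (95% interval -0.18 to 0.19, adjusted p = 0.961 by edgeR), which does not include a change as large as that of HSPH1. DNAJB1 overlaps TECR on the opposite strand, whose counts were 138% of its own, and strandedness of the counting was not given, so part of either gene's reads could belong to the other.

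BAG3 encodes an exchange factor of HSP70 that routes clients to autophagy. It was at 58.3, 61.3 and 63.6 normalised CPM with WT, 65.9, 69.9 and 64.4 with S239A and 64.8, 43.0 and 56.7 with S239D. The S239A libraries were all above WT by a narrow margin, and the S239D libraries spread from the lowest value of all to one above every WT library. The S239D difference was -0.15 from WT (95% interval -0.42 to 0.11, adjusted p = 0.345 by edgeR) and -0.28 from S239A (-0.55 to -0.018, adjusted p = 0.0784). Without S239D replicate 1 the latter passed the threshold, with an adjusted p of 0.015.

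HSPB1 was at 972.8, 1045 and 1036 normalised CPM with WT, 1062, 881.0 and 1047 with S239A and 1063, 846.9 and 976.4 with S239D. Replicate 2 was the lowest library of each variant group, and all groups overlapped. Its S239D difference from WT was -0.081 on the log2 scale (95% interval -0.28 to 0.12, adjusted p = 0.519 by edgeR), and its other differences were -0.030 (S239A against WT) and -0.051 (S239D against S239A).

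Replicate 2 thus took the same place in both variant groups for 7 of the 10 genes. It was highest for HSP90AA1, HSP90AB1, HSPA4, HSPA8 and HSPH1 and lowest for HSPA1B and HSPB1. The same count over all genes tested was not made, so 7 of 10 cannot be read as particular to these genes. Over all genes tested, the deviations of S239A replicate 2 and S239D replicate 2 from their group means correlated at 0.251. These libraries had the largest mitochondrial share of each group, and the part of that difference in the results was not tested. Without these 2 libraries 4 of the 10 were called in each comparison. In S239A against WT they were HSPA1A (higher) and HSPA8, HSPH1 and HSP90AA1 (lower), beside 5.29% of all genes (2.68% higher, 2.62% lower). In S239D against WT they were HSPA1A and HSPA8 (lower) and HSPH1 and HSPA1B (higher), beside 51.6% (25.3% higher, 26.3% lower). In S239D against S239A they were HSPA1A (lower) and HSPH1, HSPA4 and HSP90AA1 (higher), beside 49.9% (24.7% higher, 25.2% lower).

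HSF1, the factor that drives the inducible chaperones under stress, rose in S239D. It was at 91.7, 98.2 and 108.1 normalised CPM with WT, 97.6, 102.6 and 98.5 with S239A and 165.7, 142.2 and 159.5 with S239D. All S239D libraries were above all others, with a log2 difference of 0.65 from WT (SE 0.090, adjusted p = 6.72e-05 by edgeR) and 0.65 from S239A (adjusted p = 5.67e-05). HSF2, a related factor, was at 28.3, 26.3 and 21.5 with WT, 22.5, 24.6 and 19.2 with S239A and 19.6, 21.0 and 19.7 with S239D, and its S239D difference from WT was -0.34 (adjusted p = 0.06 by edgeR). Of the 4 heat shock factor genes tested, HSF4 also rose in S239D (0.70, adjusted p = 0.0267 by edgeR), and HSBP1, which encodes an inhibitor of HSF1, fell (-0.48, adjusted p = 0.000907). HSF1 protein activity was not measured in these files.

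Beyond the 10 genes, 92 further chaperones and partners were listed in 9 groups, and 85 were tested. In S239A against WT none was called by edgeR (median difference -0.062), and DESeq2 called 2. Without overlap 18 of the 85 lay below WT in that comparison and 4 above, beside 9.55% and 9.94% of all genes. In S239D against WT 24 were called, 9 higher and 15 lower, beside 19.7% of all genes higher and 21.7% lower, with a median of -0.091. With limma on log2(TPM + 1) that split was 10 higher and 5 lower. Against S239A 28 were called in S239D, 14 higher and 14 lower, beside 20.9% of all genes higher and 22.7% lower (43.6% in all). These called genes were spread over the groups as follows, for S239D against WT.

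Of the 7 other HSP70 genes, 1 was called. HSPA2, best known from the testis, was at 87.9, 89.0 and 87.6 normalised CPM with WT, 99.9, 108.1 and 101.7 with S239A and 19.8, 18.7 and 17.1 with S239D. Its fall (-2.25, SE 0.095, adjusted p = 1.8e-09 by edgeR) was larger than that of HSPA1A. Among 12 J-domain genes 3 rose, DNAJC2 (0.67), DNAJA1 (0.32) and DNAJC7 (0.27), and DNAJC9 fell (-0.36). Among 12 partners of HSP90, CHORDC1 rose (0.52) and FKBP5 (-0.34) and PTGES3 (-0.27) fell. FKBP5 and PTGES3 serve steroid receptor complexes, and FKBP5 is itself an androgen receptor target.

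Of 13 exchange factors and quality control genes, SQSTM1, the autophagy receptor p62, rose most. It was at 200.2, 218.1 and 203.2 normalised CPM with WT, 207.6, 182.2 and 220.1 with S239A and 516.3, 447.7 and 485.4 with S239D, a log2 difference of 1.22 (SE 0.089, adjusted p = 2.34e-07 by edgeR). BAG1 rose (0.39) and the ubiquitin gene UBB fell (-0.43). The small heat shock gene HSPB8, whose protein works with BAG3, fell by 0.24 on the log2 scale, a call lost in several alternatives (adjusted p = 0.0402 by edgeR, 0.0184 to 0.24 over the alternatives). None of 14 genes of the chaperonin TRiC and prefoldin was called (median -0.085), beside 41.4% of all genes. Without overlap 5 of the 14 lay below WT and 1 above, beside 27.4% and 26.5% of all genes. Without both variant replicate 2 libraries 5 of the 14 were called lower and 2 higher, beside 26.3% and 25.3%. Among 10 mitochondrial chaperones LONP1 rose (0.41) and TRAP1, the mitochondrial HSP90, fell (-0.42).

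Some of these calls lay near the threshold and were lost when 1 library was left out, with the direction kept. For S239D against WT, HSF4 and PTGES3 missed the threshold without any 1 of the WT libraries and without S239D replicate 1 or 3 (HSF4 at 0.53 to 0.74 with adjusted p of 0.0569 to 0.112, PTGES3 at -0.28 to -0.21 with 0.0516 to 0.0806, by edgeR). DNAJC7 missed it without WT replicate 1 or 3 or S239D replicate 3 (0.23 to 0.28, adjusted p of 0.0571 to 0.101). HSPB8 missed it without any single library other than S239A replicate 2 (-0.27 to -0.22, adjusted p of 0.0503 to 0.112). Among the named genes of smallest adjusted p in each list, HSBP1, DNAJC9, FKBP5, PTGES3, HSPB8, TRAP1 and the ER gene SIL1 missed it with limma on log2(TPM + 1). Their adjusted p by limma ran from 0.0508 (SIL1) to 0.24 (HSPB8).

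**Figure D4:**
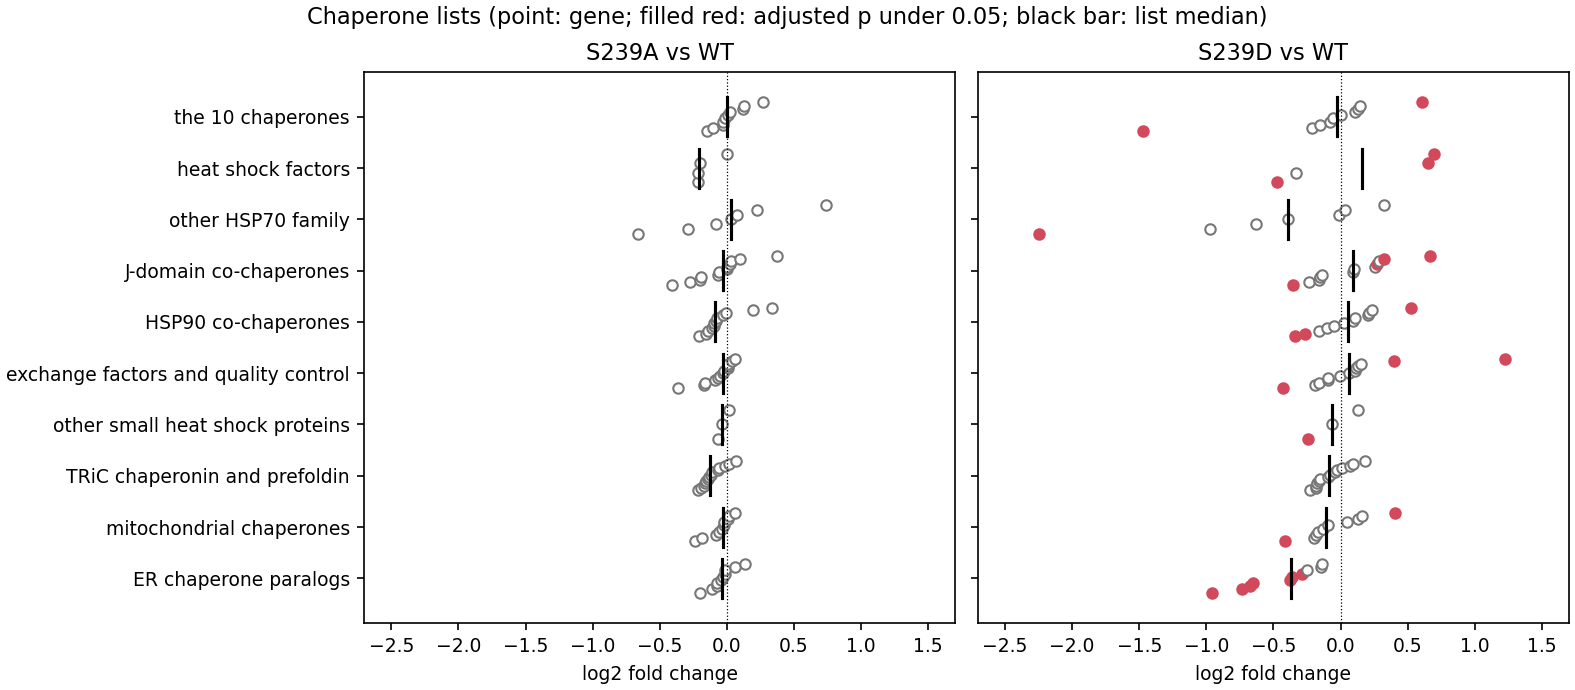
Log2 fold change (horizontal axis) of each gene of the 10 chaperones and of the 9 other chaperone groups, in S239A against WT and S239D against WT, with filled points for an adjusted p under 0.05 by edgeR and a black bar at each group's median. No point is filled in S239A against WT, and in S239D against WT the endoplasmic reticulum group is the one with 7 filled points, all below 0.

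The chaperones of the endoplasmic reticulum (ER) are the paralogs that do the same work on secreted proteins. Of 10 tested, 7 fell in S239D against WT and none rose (median -0.37), beside 21.7% of all genes lower and 19.7% higher. Against S239A 7 fell and none rose, beside 22.7% lower and 20.9% higher. The largest falls were those of the ER HSP90 HSP90B1 (-0.96, adjusted p = 1.29e-06 by edgeR) and the ER HSP70 HSPA5 (-0.74, adjusted p = 6.19e-06). SDF2L1 (-0.67) and the exchange factor SIL1 (-0.65) fell too. With limma on log2(TPM + 1), HSP90B1, HSPA5 and SDF2L1 kept the call against WT, and SIL1 and the other ER falls missed the threshold.

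The ER genes HSP90B1, HSPA5 and HYOU1 were also set against a cytosolic counterpart inside a library, where scaling between libraries drops out. The log2 ratio of HSP90B1 to HSP90AB1 counts was 0.36 ± 0.059 with WT, 0.33 ± 0.045 with S239A and -0.54 ± 0.061 with S239D. That of HSPA5 to HSPA8 was -0.37 ± 0.030, -0.29 ± 0.066 and -0.89 ± 0.019. That of HYOU1, the ER HSP110, to HSPH1 was 2.21 ± 0.086, 2.30 ± 0.22 and 1.31 ± 0.20. In all 3 pairs every S239D library lay below every WT and S239A library. Exact two-sided permutation tests gave p = 0.1 for each pair against WT and against S239A, the smallest value 3 against 3 libraries allow, and 0.3 to 0.6 for S239A against WT. A ratio shows unequal change and does not by itself say which gene of the pair moved. In the single-gene fits of S239D against WT, HSP90B1 and HSPA5 fell, while HSP90AB1 and HSPA8 were not called. In the third pair HSPH1 rose. HYOU1 was at 431 ± 8.07 normalised CPM with WT and 354 ± 21.8 with S239D, but at 154 ± 13.4 and 151 ± 2.79 TPM.

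**Figure D5:**
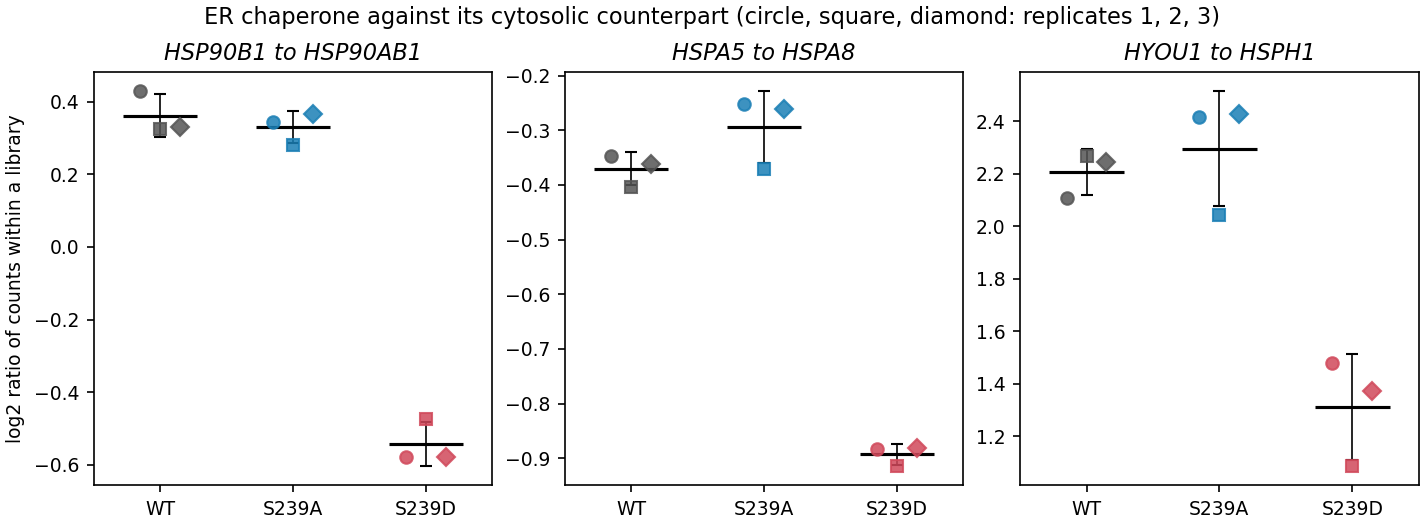
Log2 ratio of counts within a library (vertical axes) for HSP90B1 to HSP90AB1, HSPA5 to HSPA8 and HYOU1 to HSPH1, with circle, square and diamond for replicates 1, 2 and 3 and bars for the mean and SD. The S239D means of -0.54, -0.89 and 1.31 lie below the WT means of 0.36, -0.37 and 2.21.

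Immediate early genes, which respond within minutes to handling as well as to signals, moved in both directions in S239D against WT: of 10, 4 rose and 5 fell, with JUNB at -1.22 and ATF3 at 0.95, beside 19.7% of all genes higher and 21.7% lower. Their summed TPM was 646 to 670.3 with WT, 549 to 698 with S239A and 569 to 648 with S239D. Their part in the chaperone results was not tested.

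Genes with a profile most like that of the called chaperones were sought among 8731 genes of at least 20 CPM by the root mean square difference of centred log2 CPM over the 9 libraries. For HSPA1A these were SLC17A7 (0.0931), TSPAN33 (0.0978) and AMPD2 (0.117), which differed by -1.53, -1.56 and -1.32 in S239D against WT. For HSPH1 they were SEC31A (0.0331), MTREX (0.0603) and WASHC2C (0.0639), which differed by 0.56, 0.55 and 0.54. The genes were chosen on these same 9 libraries, so differences near those of HSPA1A and HSPH1 follow from the choice.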

How the data were processed

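RNA was measured in 9 libraries of 22Rv1 cells, 3 per PDCD4 form, grouped by the genotype labels. Per the labels' protocols, poly-A RNA was selected on oligo-T beads, and random hexamers primed the complementary DNA. The authors deposited RSEM expected counts per gene, without scaling between libraries, and TPM, scaled within a library. The submitters' processing notes name Trimmomatic 0.39 and RSEM. In the sources used here, aligner, genome build and strandedness are not given. The coordinates were read from the deposited table, in which 10 of the 10 chaperone genes overlapped the same gene in GENCODE release 29 on GRCh38.

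Expected counts were rounded (3.81% of values were not whole). Counts were scaled by TMM, filtered with filterByExpr (16213 of 60623 genes kept) and tested in R 4.3.3 with the two-sided quasi-likelihood F test of edgeR 4.0.16. A single model with 1 mean per group took in the 9 libraries together. Benjamini-Hochberg adjustment ran over all genes tested, with calls at 0.05. edgeR's common coefficient of biological variation came to 0.106. Normalised CPM are edgeR's, and 3 counts, the floor used for counting error alone, equalled 0.31 to 0.527 CPM. Intervals of differences are 95% intervals. The fit recovered most of the largest known changes in simulated counts drawn with its own estimated spread, with 200 genes changed. How fully it recovered smaller changes is not given here. No replicate 2 library deviated in that simulation, so it does not show how the fit performs with such libraries.

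The chaperone genes, the other lists and the tests were chosen with earlier results of these data known. Named were the 10 genes, PDCD4, HSF1, HSF2, up to 4 called genes of smallest adjusted p from each list, and the 3 most similar profiles for the 2 chaperones of smallest adjusted p. Alternatives were RLE scaling, no filter or a filter of 1 CPM in 6 libraries, only the 2 groups compared, a replicate block, HSPA1A and HSPA1B summed, each library left out, both variant replicate 2 libraries left out, DESeq2 1.42.0, and limma 3.58.1 on log2(TPM + 1) for genes of at least 1 TPM in 3 libraries. Same-numbered libraries were checked for pairing: deviations from group means correlated at -0.0087 to 0.0914 between WT and a variant and at 0.100 to 0.251 between S239A and S239D. S239A replicate 3 correlated at 0.150 with S239D replicate 1, above its 0.103 with S239D replicate 3. The labels state no pairing, and these values are weak support for one. The reported fits therefore have no block, and the replicate block is given as an alternative. Upstream sequences are from RefSeq (GRCh38.p14), and shared sequence was counted over GENCODE release 29 transcripts as runs of 50 bases.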

Additional observations from a re-analysis of the deposited data

How the results depend on the processing

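Across 18 alternatives, 517 of 534 alternative values of the 10 chaperone genes stayed on the same side of the threshold, 17 passed the threshold where the reported value did not, and none lost it. Of the 534 values, 27 took the opposite sign, all of them uncalled (lowest adjusted p 0.113). Chaperones called in S239A against WT numbered 0, and 4 without both variant replicate 2 libraries. In S239D against WT they numbered 2, 1 with HSPA1A and HSPA1B summed, 3 with the replicate block (HSPA8, -0.22, adjusted p = 0.0333 by edgeR) and 4 without both replicate 2 libraries. In S239D against S239A they numbered 2, also with the replicate block, and 4 without both. Leaving out 1 library at a time gave 0 in S239A against WT, 2 to 4 in S239D against WT (4 without S239D replicate 2) and 2 to 4 in S239D against S239A (4 without S239A replicate 2). With 1 library left out, all genes called numbered 5322 of 16531 to 7533 of 16549 in S239D against WT. In S239D against S239A they numbered 5853 of 16495 to 7182 of 16549. The replicate block gave 7275 and 7610 of 16213 in these comparisons. For HSPA8 in S239D against WT the value without the filter was -0.22 (adjusted p = 0.0417 by edgeR). The other 85 chaperone genes gave 0 calls in S239A against WT, 2 without the filter, 2 with DESeq2 and 14 without both replicate 2 libraries. Those 14 were 2 higher and 12 lower, beside 5.29% of all genes (2.68% higher, 2.62% lower). In S239D against WT the 85 genes gave 24, 29 with the replicate block, 15 with limma on log2(TPM + 1), 18 to 33 with 1 library left out and 51 without both. Those 51 were 18 higher and 33 lower, beside 51.6% of all genes (25.3% higher, 26.3% lower). In S239D against S239A the 85 genes gave 28, 31 with the block, 22 to 32 with 1 library left out and 39 without both. Those 39 were 22 higher and 17 lower, beside 49.9% of all genes (24.7% higher, 25.2% lower). The all-gene counts above, with the block and with 1 library left out, stand beside those of the 85 genes too. With limma, 4351 of 17363 genes were called in S239D against WT. Over all genes, the 1 call of S239A against WT became 142 without the filter, 65 with DESeq2, 6 with the block, 8 without S239D replicate 2, 2 without WT replicate 3, 2 with limma and 874 without both, of 16519 tested. The 6708 and 7064 calls of the S239D comparisons became 4351 and 4697 with limma (2784 higher and 1913 lower in the latter, against 3390 and 3674). The causes were not tested. With 3 libraries per group an exact permutation test cannot go below 0.1.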

Other observations

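Within 50 kb of HSPA1A, 9 genes were tested beside it. In S239D against WT 2 of the 9 were called lower and 1 higher, beside 21.7% and 19.7% of all genes tested. LSM2 (-1.0, adjusted p = 7.29e-05 by edgeR) and SLC44A4 (-0.50, adjusted p = 0.000454) fell and NEU1 (0.52, adjusted p = 0.000345) rose. VARS differed by 0.034 (adjusted p = 0.791) and VWA7 by 0.11 (adjusted p = 0.466). HSPA1L, the HSP70 gene next to HSPA1A and singled out after its values were seen, averaged 2.33 normalised CPM and differed by -0.97 (adjusted p = 0.066).

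Annotated pseudogenes of the chaperone families (29 in the table) held 145.0 counts in all libraries together, 0.0251% of the counts of the genes themselves. Of runs of 50 bases, 21.4% in HSP90AA1, 18.8% in HSP90AB1, 15.4% in HSPA8, 11.4% in HSPB1 and 2.57% in DNAJB1 occurred also in other genes, and none in HSPA4 and BAG3. WDR20, on the strand opposite HSP90AA1, had 1.22% of its counts.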
